A study of Rattus norvegicus with 6 samples.

Results

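Of the 30945 loci counted in this study, 385 carry an identifier that marks them as absent from the gene annotation, and all 385 make up the set described here. They are transcribed stretches with a running number in place of an Ensembl identifier, and each is called by that number below, as in locus 86. None has a gene symbol, and none overlaps the span of an annotated locus. The RNA came from primary rat vascular smooth muscle cells (RVSMC), the contractile cells of the vessel wall. There were 3 negative control libraries (control 1 to 3) and 3 labelled siRNA_ANK (siRNA_ANK 1 to 3), an siRNA given the name of the ANK protein, which is encoded by Ankh and needed for pyrophosphate release. The labels give both arms under the heading genotype and state no siRNA sequence, dose, time after transfection, or age or sex of the animals, and they do not say whether replicates came from separate cultures. The p-values below thus reflect the spread among these 6 libraries alone, and that spread may be technical.

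Loci of this kind usually have one of a few origins. Some are long non-coding RNAs, which vary between assemblies and annotations more than protein-coding genes do. Some start beside a gene's promoter and run away from it on the other strand, because many mammalian promoters are transcribed in both directions. Others are copies of retroelements, either LINE-1 elements, which encode an ORF2 protein with reverse transcriptase activity, or endogenous retroviruses, which carry gag, pol and env genes. A last group are ordinary genes that one annotation release lacks.

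The loci lay on every autosome and on X, with 1 on an unplaced scaffold, 207 on the plus and 178 on the minus strand of mRatBN7.2. Their transcript length ran from 201 to 21593 bases with a median of 878, and in 286 the span exceeded the transcript length, so that the model holds at least 1 intron. The files name a protein match for some of them. LINE-1 ORF2 was the match of 14 loci, a retroviral Gag, Pol or Env protein that of 24, and another cellular protein that of 53, which leaves 294 loci with no match. The genome of the files' build was not used here, so the sequences of the loci themselves are not shown.

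For loci that sit beside a gene start, the gene's promoter was looked up in RefSeq by gene symbol. The counts do not measure promoter activity, and the RefSeq start was not checked against the start in mRatBN7.2. Of the 6 matched promoters whose locus rose in siRNA_ANK cells 4 are shown, a choice made after their values were seen. The others, Fbxw7 and Nfib, are not shown. Beside Ccn1 and Samd4a the gene rose as well, and beside Rfx1 and Dhx15 it did not pass the test. Each line gives the 250 bases upstream of the RefSeq start in GRCr8, 5′ to 3′ on the gene's strand, in lower case with motif matches in capitals. The windows are chr2:237225690-237225939 on the minus strand for Ccn1, chr15:22727019-22727268 on the plus strand for Samd4a, chr19:40996810-40997059 on the minus strand for Rfx1 and chr14:62999648-62999897 on the plus strand for Dhx15.
Ccn1: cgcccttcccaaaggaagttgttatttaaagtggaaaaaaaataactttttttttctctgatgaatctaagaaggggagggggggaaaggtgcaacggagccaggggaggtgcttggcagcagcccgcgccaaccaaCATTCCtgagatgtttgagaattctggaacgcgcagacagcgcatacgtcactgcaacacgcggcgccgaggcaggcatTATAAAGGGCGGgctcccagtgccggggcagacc
Samd4a: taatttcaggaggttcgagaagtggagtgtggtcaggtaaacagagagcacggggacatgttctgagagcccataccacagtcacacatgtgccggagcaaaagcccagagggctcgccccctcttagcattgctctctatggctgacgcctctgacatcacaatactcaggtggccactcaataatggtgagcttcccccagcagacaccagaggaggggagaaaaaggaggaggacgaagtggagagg
Rfx1: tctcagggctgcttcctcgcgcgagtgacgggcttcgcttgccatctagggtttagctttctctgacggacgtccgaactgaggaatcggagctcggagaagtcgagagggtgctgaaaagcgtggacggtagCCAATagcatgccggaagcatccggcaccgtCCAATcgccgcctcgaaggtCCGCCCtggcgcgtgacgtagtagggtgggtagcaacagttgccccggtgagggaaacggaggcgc
Dhx15: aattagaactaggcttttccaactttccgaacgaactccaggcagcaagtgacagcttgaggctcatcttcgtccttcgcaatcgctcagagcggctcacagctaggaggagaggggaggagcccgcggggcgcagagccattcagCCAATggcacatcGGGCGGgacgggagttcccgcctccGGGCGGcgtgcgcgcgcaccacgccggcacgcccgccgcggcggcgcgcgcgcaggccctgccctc
The letters searched, on both strands, were TATAAA for the TATA box, found in 12.9% of 33469 RefSeq promoters of this length, GGAATG for the TEAD site (12.1%), and TGACGTCA for the cyclic AMP response element (1.59%). The others were CCAAT for the CCAAT box (34.0%) and GGGCGG for the GC box (30.5%). Positions count back from the gene start to the first letter of the match as printed. In the Ccn1 window the TATA letters lay at -34, with the GC box letters directly after them at -28, and the TEAD letters lay on the other strand at -113. The Rfx1 window held the CCAAT letters at -117 and -86 and the GC box letters on the other strand at -66. The Dhx15 window held the CCAAT letters at -104 and the GC box letters at -91 and -66. In the Samd4a window none of the 5 was found, which says only that these letters are not in these 250 bases. The windows held 14 (Ccn1), 6 (Samd4a), 26 (Rfx1) and 30 (Dhx15) CG dinucleotides, against a median of 5 over all promoters. Matched windows beside loci that were not called held 1 (Cyb561a3) to 25 (Mgat2), and that of Irx2, beside locus 3, which fell, held 23. High counts were thus not limited to windows beside loci that rose.

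The libraries held 15641259 to 17441548 counts, so that 1 count is worth 0.0563 to 0.0633 CPM, the count scaled to library size with TMM factors. Unannotated loci took 0.306% to 0.312% of the counts in control cells, and 0.327% to 0.339% in siRNA_ANK cells, and 327 to 341 of them had a count in any 1 library. Ankh measured 338, 351 and 367 CPM in control cells, and 84.9, 76.7 and 120 CPM in siRNA_ANK cells, a log2 fold change of -1.91 ± 0.16 (SE, 3 libraries per group, adjusted p by edgeR = 0.000180). Control 2 and siRNA_ANK 3 were the libraries closest to the opposite group on the first principal component. All 6 smooth muscle markers were higher in siRNA_ANK cells (summed level 2526 to 3522 CPM against 5047 to 6037), as were 4 of 5 fibroblast markers (117 to 125 against 185 to 197). Summed endothelial markers stayed between 0.749 and 1.58 CPM with 2 of 5 at 0, and of 5 macrophage and leukocyte markers 2 were at 0, 2 (Cd68 and Csf1r) were too low to test, and 1, Cd14, was lower (24.8, 23.9 and 26.9 CPM against 11.3, 10.5 and 14.4 CPM). The part of these shifts in the results below was not tested, and in bulk RNA fewer cells of a type and less RNA per cell cannot be told apart.

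More unannotated loci rose than fell in siRNA_ANK cells. Of the 385 loci, 224 had enough counts to be tested, 53 were higher and 26 were lower at an adjusted p under 0.05 (edgeR quasi-likelihood test). That is 35.3% of the tested loci, against 40.1% of all 13016 rows tested. By direction, 23.7% of the tested loci were higher, against 19.9% of all rows, and 11.6% were lower, against 20.2% of all rows. Loci that were called and changed at least 2-fold numbered 19 higher (8.48%, against 4.56% of all rows) and 15 lower (6.70%, against 2.58%). The groups did not overlap for 103 of 224 loci, 46.0%, against 51.1% of all rows. The median log2 fold change was 0.11 over the tested loci and 0.01 over all rows. Since a locus can pass the count filter through the group in which it is high, these shares describe the tested loci, not all 385, and 16 loci had no count in any library.

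The share of calls differed with level. Of the 74 loci with a mean of at least 5 CPM, 26 were higher and 13 lower, which is 52.7%, against 44.9% of annotated rows at that level. Of the 109 loci between 1 and 5 CPM, 24 were higher and 9 lower, which is 30.3%, against 25.0% of annotated rows. Among the 202 loci under 1 CPM, 41 were tested, with 3 higher and 4 lower, which is 17.1%, against 19.7%. The loci nearest to the threshold on the inside were locus 277 (adjusted p = 0.0440) and locus 160 (0.0466), and on the outside locus 77 (0.0518) and locus 74 (0.0532) by edgeR.

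**Figure D1:**
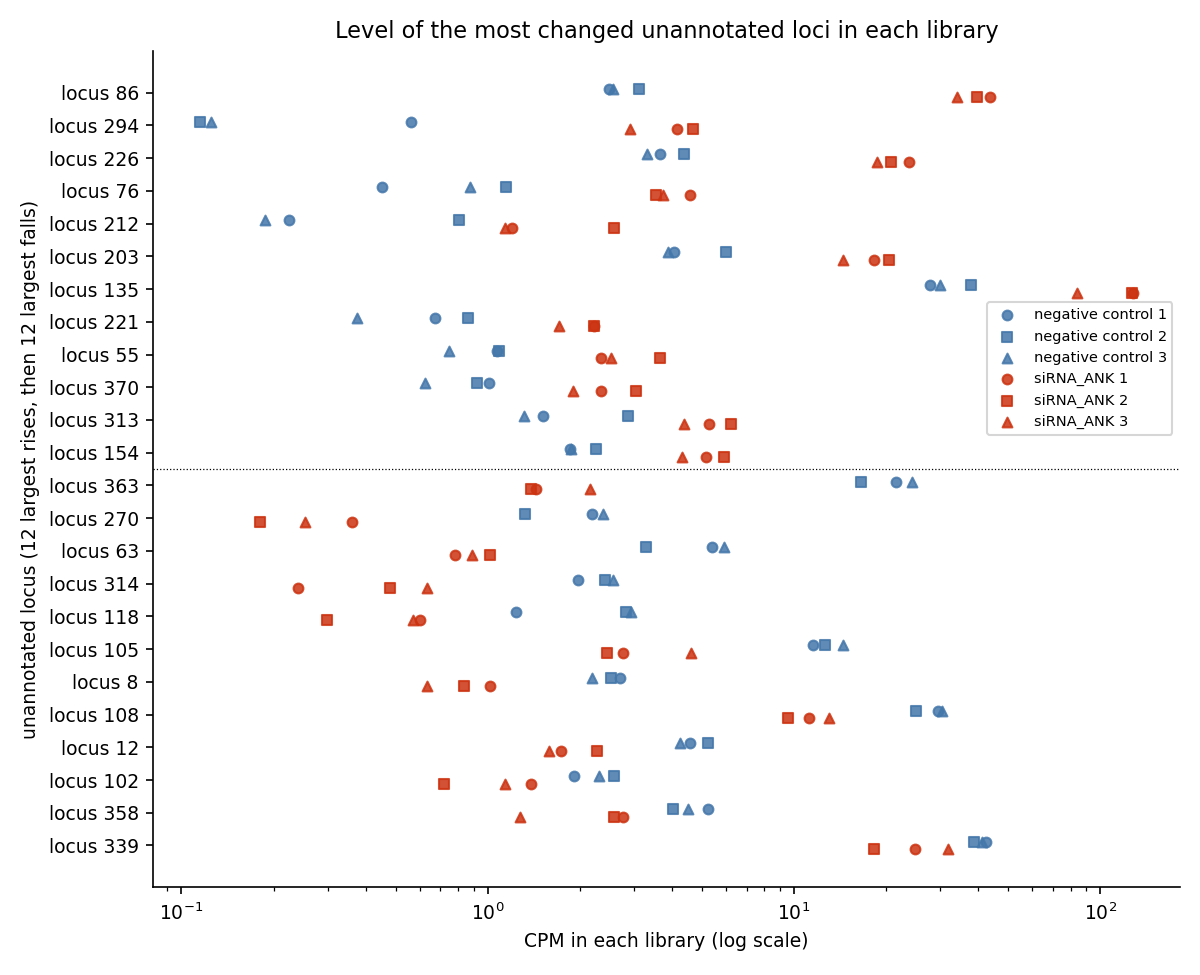
CPM of 24 unannotated loci in each of the 6 libraries, on a log axis; blue symbols are negative control and red symbols siRNA_ANK libraries, and the symbol shape gives the replicate number. The upper 12 loci are the largest rises and the lower 12 the largest falls among called loci with a mean of at least 1 CPM and groups that do not overlap; locus 86 moved from between 2.48 and 3.11 CPM to between 34.0 and 43.5 CPM.

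Loci that match LINE-1 ORF2 ranged widely in their change. These elements are spread over the genome in many near-identical copies, so a count can hold reads of other copies, and the handling of reads that map to several places is not given in the sources used here. Of the 14 loci, 11 were tested, 4 rose and 1 fell, which is 45.5% called, against 40.1% of all rows. Locus 135, on the minus strand of chromosome 15 from 49836234 to 49899319, had the longest transcript of the set at 21593 bases. It measured 27.8, 37.9 and 29.9 CPM in control cells, and 128, 127 and 83.9 CPM in siRNA_ANK cells. All siRNA_ANK values lay above all controls, with a log2 fold change of 1.83 ± 0.21 (SE, 3 libraries per group, adjusted p by edgeR = 0.00127). Locus 294, on chromosome 5 from 13143763 to 13152028, had 10, 2 and 2 counts in control cells, and 69, 78 and 46 counts in siRNA_ANK cells. The low control counts leave its fold poorly fixed: the log2 fold change was 3.81 ± 0.42 (SE, 3 libraries per group, adjusted p by edgeR = 7.31e-06). Locus 212 on chromosome 2 had 4, 14 and 3 counts against 20, 43 and 18 counts, a log2 fold change of 1.98 ± 0.52. The smallest rise was that of locus 186 (0.29), which lost its call without control 1 or siRNA_ANK 1 (adjusted p = 0.0954 and 0.0521). The fall was that of locus 50 (-0.50). The abundant locus 28, at 51.3, 53.6 and 57.9 CPM in control cells, and 54.3, 43.6 and 50.7 CPM in siRNA_ANK cells, overlapped between groups (log2 fold change -0.13, adjusted p = 0.226 by edgeR).

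Summed over the 14 LINE-1 loci, the level was 128, 145 and 141 CPM in control cells, and 246, 234 and 191 CPM in siRNA_ANK cells. Without locus 135 the sums were 100, 107 and 111 CPM against 118, 107 and 107 CPM, and the groups overlapped. Most of the rise in the summed level was thus in 1 locus.

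Retroviral matches changed in both directions. Of 24 loci, 19 were tested, 6 rose and 4 fell, which is 52.6% called, against 40.1% of all rows (19.9% higher and 20.2% lower). Among the 10 with a Pol match 4 rose and 3 fell. Locus 10, a Pol match on the plus strand of chromosome 1 from 129668293 to 129675408, was the most abundant of them. It measured 174, 225 and 161 CPM in control cells, and 310, 326 and 283 CPM in siRNA_ANK cells, without overlap. The log2 fold change was 0.72 ± 0.12 (SE, 3 libraries per group, adjusted p by edgeR = 0.00231). The nearest annotated locus, ENSRNOG00000065273 at 12935 bases, rose by 0.39, and the difference did not pass the test (0.35 ± 0.13, limma adjusted p = 0.0534). Locus 226, a Pol match on chromosome 3 from 6840696 to 6846839, went from 3.66, 4.38 and 3.31 CPM to 23.7, 20.8 and 18.6 CPM. This is 5.57-fold, a log2 fold change of 2.47 ± 0.14 (SE, 3 libraries per group, adjusted p by edgeR = 9.03e-09). Locus 378 on X also rose (1.36), as did locus 337 (1.21), locus 372 (0.81) and locus 282 (0.50). Of these, locus 337 lost its call without control 1 or siRNA_ANK 2, and locus 282 without control 1 or 2 or siRNA_ANK 1.

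The falls among retroviral matches were as clear. Locus 105, a Pol match on chromosome 13 from 72056300 to 72062576, measured 11.5, 12.6 and 14.4 CPM in control cells, and 2.76, 2.46 and 4.62 CPM in siRNA_ANK cells. Its log2 fold change was -1.97 ± 0.20 (SE, 3 libraries per group, adjusted p by edgeR = 2.94e-06). Locus 108, an Env match on the same chromosome from 16904542 to 16910351, measured 29.5, 25 and 30.5 CPM against 11.2, 9.58 and 13 CPM. Its log2 fold change was -1.34 ± 0.12 (SE, 3 libraries per group, adjusted p by edgeR = 7.06e-07). For both loci every control lay above every siRNA_ANK library. Locus 102 (-1.07) lost its call without siRNA_ANK 2 (adjusted p = 0.0510), and locus 299 (-0.51), the smallest of the 4 falls, lost its call without any 1 of control 1 or 3 or siRNA_ANK 1 or 3 (0.0602 to 0.130).

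The summed level of the 24 retroviral loci was 288, 344 and 285 CPM in control cells, and 437, 450 and 413 CPM in siRNA_ANK cells. Without locus 10 it was 114, 119 and 124 CPM against 126, 123 and 130 CPM, with the groups overlapping. As for LINE-1, 1 locus carried most of the difference in the sum, while single loci moved by several-fold in opposite directions.

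**Figure D2:**
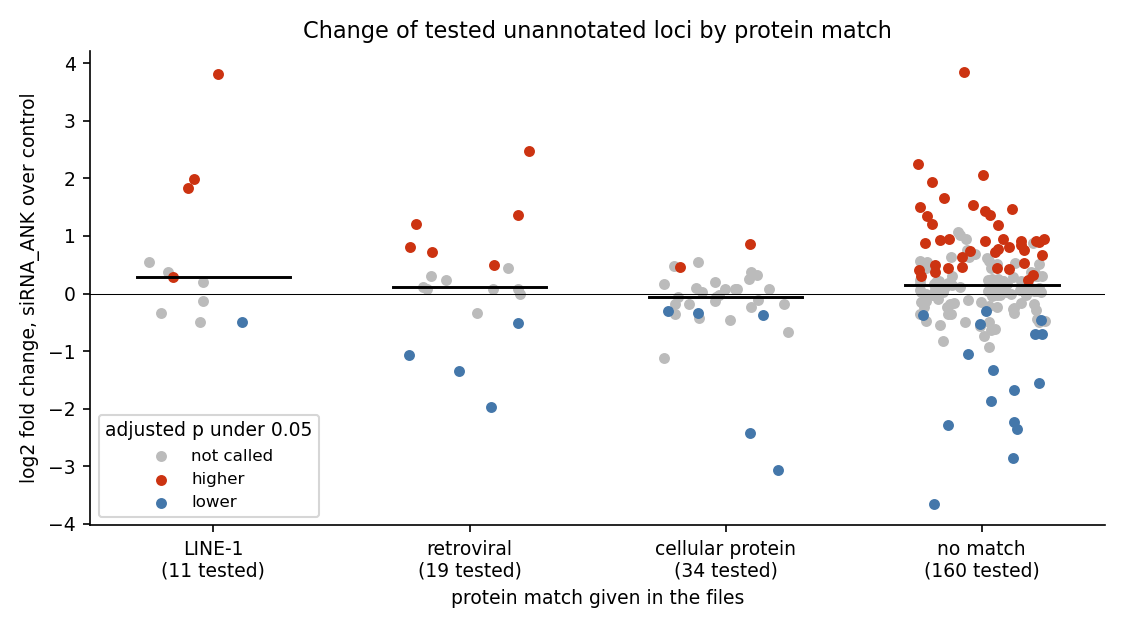
Log2 fold change (siRNA_ANK over control) of the 224 tested unannotated loci by protein match; each point is 1 locus, red and blue points passed an adjusted p under 0.05, and black lines are medians. LINE-1 loci (4 higher, 1 lower) ran from -0.5 to 3.81 and retroviral loci (6 higher, 4 lower) from -1.97 to 2.47. Most of the 34 loci with a cellular match lie near 0, but they ran from -3.06 to 0.86. Loci with no match had the widest range, from -3.65 to 3.84.

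Loci that match a cellular protein had the lowest share of calls of the 4 match classes. Of 53 such loci, 34 were tested, 2 rose and 5 fell, which is 20.6% of those tested, against 40.1% of all rows. The count of falls was 3 without control 3 and 3 without siRNA_ANK 1, and it ran from 2, in a test against a fold of 1.2, to 9, when all rows with a count were tested. For 16 of the 53, RefSeq (GRCr8) lists the gene of the matched protein between the same 2 flanking genes, and the files have no annotated row of that name there. They include Cox8a (locus 41), a cytochrome c oxidase subunit, Psmd9 (locus 99), a proteasome assembly chaperone, and Rpl7 (locus 279), a protein of the large ribosomal subunit. For 23 of the 53, the gene of the matched protein has an annotated row of its own and was left out of that list. A match alone thus does not show that the locus is that gene.

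Locus 279 was the most abundant of all unannotated loci. It measured 722, 660 and 658 CPM in control cells, and 694, 731 and 734 CPM in siRNA_ANK cells, overlapping between the groups (log2 fold change 0.08 ± 0.06, edgeR adjusted p = 0.264). Ribosomal protein genes have many processed copies, so its reads can be shared. Locus 41 (a Cox8a match), at a mean of 71.1 CPM, and locus 66 (a Natd1 match) had log2 fold changes of -0.06 and 0.02. Per kilobase of transcript, locus 279 stood at 236, locus 41 at 125 and locus 66 at 16.8 CPM.

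The rise among abundant loci of this group was locus 285, on chromosome 5, which matches Klhl9, an adaptor of a ubiquitin ligase that RefSeq lists between the same flanks. It measured 63.8, 60.7 and 63.9 CPM in control cells, and 88.5, 86.8 and 83.4 CPM in siRNA_ANK cells, without overlap (log2 fold change 0.46 ± 0.06, n = 3 per group, edgeR adjusted p = 2.47e-05). The annotated pseudogene 131 bases from it, AABR07049134.1, rose by 0.58 on the log2 scale (adjusted p = 0.00252), and the 2 can share reads. The other rise was locus 80, a match of melanoma-associated antigen F1, at 12.6, 12.7 and 9.62 CPM against 21.9, 22.7 and 18.7 CPM (log2 fold change 0.86 ± 0.12). Falls were found for locus 205, a match of the translation factor Eif4g2 (-0.34), and for locus 63, a match of the ubiquitin ligase NEDD4. Locus 63 measured 5.40, 3.28 and 5.93 CPM in control cells, and 0.779, 1.02 and 0.886 CPM in siRNA_ANK cells. That was a log2 fold change of -2.43 ± 0.29 (SE, 3 libraries per group, adjusted p by edgeR = 1.14e-05), while locus 215 and locus 236, other loci with a NEDD4 match, stood at 0.26 and 0.09 and did not pass the test. Locus 183, a Nidogen-2 match, had 13, 14 and 19 counts in control cells, and 0, 0 and 5 in siRNA_ANK cells (log2 fold change -3.06). Eif4g2, Nedd4 and the Nidogen-2 gene each have an annotated row of their own. Genes with an annotated row were left out of the RefSeq list between flanks. That list thus cannot tell whether locus 205, locus 63 and locus 183 belong to those genes, and the falls are those of the loci's own rows. The remaining falls, locus 277 (a Tapbpl match, -0.31) and locus 160 (a Smim13 match, -0.37), were the 2 calls nearest to the threshold. Both lost their call without any 1 of control 1 or 3 or siRNA_ANK 1 or 2, and locus 277 also without control 2.

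Among the 294 loci with no protein match, 160 were tested, 41 rose and 16 fell, which is 35.6% called, against 40.1% of all rows. The largest rise of the whole set was locus 86, on the minus strand of chromosome 11 from 79670736 to 79682887, with a transcript of 9991 bases between Vps8, an endosomal tethering factor, and Ephb3, an ephrin receptor. It had 44, 54 and 41 counts in control cells, and 726, 661 and 537 counts in siRNA_ANK cells. This is 14.4-fold on the CPM scale, from 2.72 ± 0.344 to 39.0 ± 4.79 CPM (SD, n = 3), with a log2 fold change of 3.84 ± 0.13 (SE, adjusted p by edgeR = 6.79e-11). Locus 80, described above, lies in the same interval and also rose.

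With a mean of at least 1 CPM, the next rises without a match were locus 76, locus 203 and locus 221. Locus 76, on chromosome 11 between Dcbld2 and Col8a1, a collagen gene, went from 0.450, 1.15 and 0.875 CPM to 4.56, 3.53 and 3.74 CPM (log2 fold change 2.25 ± 0.30, edgeR adjusted p = 3.50e-05). Locus 221, on chromosome 20 between Tfam and Bicc1, went from 0.675, 0.864 and 0.375 CPM to 2.22, 2.22 and 1.71 CPM (1.66 ± 0.34). Locus 370 on chromosome 9 rose by 1.5 and locus 154 on chromosome 17 by 1.36 on the log2 scale. In each of these the lowest siRNA_ANK library lay above the highest control.

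The largest fall was locus 363, on the minus strand of chromosome 9 from 529028 to 534927, with a transcript of 351 bases. It measured 21.5, 16.6 and 24.2 CPM in control cells, and 1.44, 1.38 and 2.15 CPM in siRNA_ANK cells. This is 12.5-fold lower, with a log2 fold change of -3.65 ± 0.19 (SE, 3 libraries per group, adjusted p by edgeR = 6.98e-09). Locus 270 on chromosome 4 fell from 39, 23 and 38 counts to 6, 3 and 4 counts (log2 fold change -2.86 ± 0.42). Locus 118 on chromosome 14 fell from 22, 49 and 47 counts to 10, 5 and 9 counts (-2.23 ± 0.41), and locus 12 on chromosome 1 from 81, 91 and 68 to 29, 38 and 25 counts (-1.32 ± 0.21). No library of one group reached the range of the other in these 4 loci.

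The most abundant loci without a match had small fold changes. Locus 40, on chromosome 1, had a mean of 412 CPM. It measured 383, 445 and 413 CPM in control cells, and 463, 415 and 352 CPM in siRNA_ANK cells, which overlapped (log2 fold change -0.01 ± 0.09, edgeR adjusted p = 0.935). Without control 2 and siRNA_ANK 3 together, the libraries closest to the opposite group, it was 0.14 (adjusted p = 0.0217). Locus 234, on chromosome 3, lies between Chp1 and Oip5, where RefSeq lists the lncRNA Oip5-as1. It had 83.6, 80.4 and 85.3 CPM against 81.3, 77.9 and 89.3 CPM (-0.01 ± 0.06, edgeR adjusted p = 0.956). Locus 180, on chromosome 19, rose slightly from 68.9, 71.0 and 67.6 CPM to 85.9, 83.1 and 76.2 CPM (0.24 ± 0.06, edgeR adjusted p = 0.00672).

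For other loci, too, the later RefSeq assembly holds a gene between the same flanks that the files do not list. This was so for 172 of the 224 tested loci, and for 108 of them at least 1 such gene has a name rather than a number. The named entries include pseudogenes and tRNAs, such as Rpl10a-ps11 for locus 3 and Trnal-uaa1 for locus 25. Flanks could lie up to 2000 kb apart, and the same count was not made for other intervals. These counts thus do not set the unannotated loci apart. Of the files' annotated rows, 17161 of 30560 were matched to RefSeq for this purpose. Locus 327 lies beyond Myc, in the interval that holds the lncRNA Pvt1, and rose from 13.3, 13.6 and 13.4 CPM to 20.1, 16.8 and 18.4 CPM (log2 fold change 0.45 ± 0.10). A shared interval does not show that the locus is that gene.

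The change of each locus was then set beside that of its nearest annotated gene. For 159 loci both members of the pair were tested. In 27 pairs (17%) both were called in the same direction, against 10.7% of 7967 pairs of an annotated row and its own nearest annotated gene. In 4 pairs (2.52%) they were called in opposite directions, against 5.26% of the annotated pairs. The difference between the 2 changes, tested within libraries with limma, was called for 35 pairs (22%), against 33.0% of the annotated pairs. Locus and gene had the same sign in 100 of 159 pairs, a count that was not made for the annotated pairs. Pearson's r between the 2 changes was 0.504 and Spearman's rho was 0.436. Over the annotated pairs these were 0.203 and 0.165. The annotated pairs were not matched to these pairs by level or distance, and 2 annotated rows can be each other's nearest gene. Among the unannotated loci with a mean of at least 5 CPM, the difference was called in 15 of 54 pairs. It was called in 15 of 70 pairs between 1 and 5 CPM, and in 5 of 35 under 1 CPM. Pairs share their libraries, and neighbouring loci can share a gene, so these are descriptions. Of the 79 called loci, 24 had a nearest gene with too few counts to test.

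**Figure D3:**
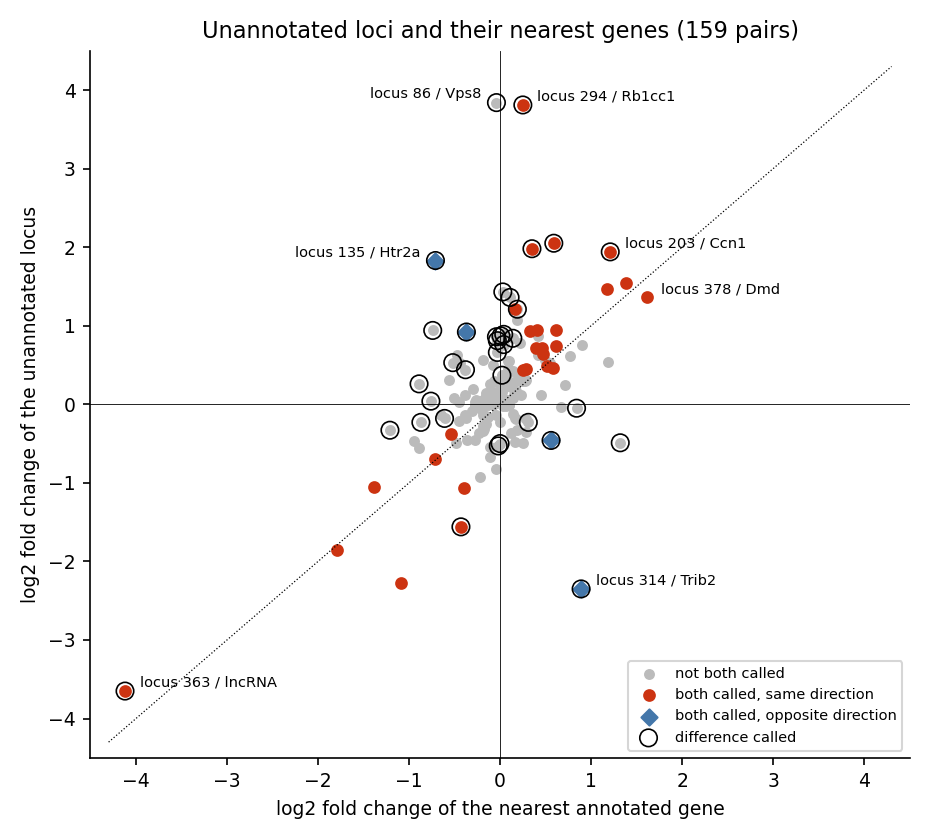
Log2 fold change of each unannotated locus (vertical axis) against that of its nearest annotated gene (horizontal axis) for 159 pairs; the dotted line marks equal change and circles mark pairs whose difference was called. Red points, both called in the same direction, number 27 and blue diamonds, called in opposite directions, number 4; locus 86 and locus 294 sit far above the line beside genes that changed by -0.04 and 0.25.

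Several pairs were called in the same direction. Locus 363 and the annotated lncRNA that ends 3862 bases away on the same strand, ENSRNOG00000062764, fell together. The lncRNA measured 24.4, 23.1 and 29.4 CPM in control cells, and 1.5, 0.958 and 1.96 CPM in siRNA_ANK cells, a log2 fold change of -4.12 ± 0.18. The difference of 0.51 (adjusted p = 0.0480) lost its call without siRNA_ANK 2 (0.177) and without any 1 of the controls (0.0921 to 0.179). Locus 220 (-1.86 ± 0.52) lies 10181 bases from Hmga1, an architectural chromatin protein, which fell by 1.79 on the log2 scale. Its call was lost without control 1 or siRNA_ANK 1 (adjusted p = 0.0502 and 0.0568). Locus 339 (-0.70 ± 0.17), 3286 bases before the start of Arfgap3, a regulator of Golgi transport, and that gene (-0.71 ± 0.10) did not differ by the test (difference -0.02 ± 0.11, limma adjusted p = 0.922). Locus 358 (-1.05 ± 0.25) lies 3710 bases before Cd28, a T cell co-stimulatory receptor, which went from 15.4, 14.2 and 17.5 CPM to 4.86, 5.99 and 7.28 CPM (-1.38 ± 0.15). For this pair the difference was 0.27 ± 0.34, so the interval is wide.

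Among rises, locus 378 (1.36 ± 0.15) lies 38357 bases from Dmd, the gene of dystrophin, which rose from 22.4, 24.7 and 20.2 CPM to 70.7, 78.3 and 56.5 CPM (1.61 ± 0.12). Locus 313 (1.47 ± 0.27) lies 39669 bases from Lbh, a transcriptional cofactor, at 58.4, 67.8 and 53.9 CPM against 145, 143 and 117 CPM (1.17 ± 0.10). Locus 55 (1.54 ± 0.29) lies 12184 bases from Kcnip1, a potassium channel subunit at 0.250 to 1.2 CPM, whose rise of 1.38 lost its call without any 1 of control 1 or 3 or siRNA_ANK 2 or 3. Locus 347 (0.72) rose with Tent5a (0.46), a poly(A) polymerase. In none of these 4 was the difference between locus and gene called.

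Other loci moved apart from their nearest gene. Locus 86 rose by 3.84 beside Vps8, 36603 bases away, at 45.1, 45.0 and 49.1 CPM in control cells, and 44.5, 44.7 and 46.0 CPM in siRNA_ANK cells. The difference was 3.87 ± 0.16 (SE, n = 3 per group, limma adjusted p = 2.94e-12). Locus 294 exceeded Rb1cc1, an autophagy scaffold 9620 bases away (0.25), by 3.78 ± 0.47, and the gene's own call was lost without control 2 or siRNA_ANK 2. Locus 366 (2.05), with 6, 5 and 6 counts against 23, 24 and 22 counts, exceeded Tram2 (0.59), a gene of collagen synthesis, by 1.42 ± 0.42. That difference lost its call without siRNA_ANK 2 or 3 (adjusted p = 0.0509 and 0.0620). Locus 212 exceeded Lmo4, a LIM-domain cofactor, by 1.77 ± 0.53, a difference lost without control 1 or 3 or siRNA_ANK 2. Locus 154 exceeded Ankrd16 by 1.24 ± 0.22 (limma adjusted p = 0.000258). Locus 8 fell by 1.56 beside Chsy1, a chondroitin sulfate synthase that fell by 0.43 on the log2 scale. That difference of -1.12 ± 0.33 was lost without control 1 (adjusted p = 0.0579).

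In 3 further pairs the gene had moved and the locus had not passed the test. S1pr1, a sphingosine phosphate receptor, rose by 1.32 while locus 211, at 2 to 14 counts per library, stood at -0.49 (difference -2.14 ± 0.56, limma adjusted p = 0.00595). Eif2ak3, the stress kinase PERK, fell by 0.74 on the log2 scale while locus 263, at 6 to 25 counts, stood at 0.94 (difference 1.64 ± 0.46), a difference lost without siRNA_ANK 2 (adjusted p = 0.0802). Ttc30b, a gene of cilium transport, rose by 0.84 while locus 231 stood at -0.05, and this difference of -0.84 was lost without any 1 of control 1 or 2 or siRNA_ANK 1 or 2 (adjusted p = 0.0822 to 0.134). Outside those lists, Slc38a10 fell by 0.38 on the log2 scale while locus 74 stood at 0.44 (difference 0.82 ± 0.18, limma adjusted p = 0.00198).

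Opposite directions were called for 4 pairs, and for 2 when either control 1 or control 3 was left out. Locus 314, 27028 bases from Trib2, had 35, 42 and 41 counts in control cells, and 4, 8 and 10 in siRNA_ANK cells (-2.35 ± 0.35). Trib2, a pseudokinase, measured 10.4, 14.7 and 10.9 CPM against 21.8, 23.5 and 21.5 CPM (0.89 ± 0.12), and the difference was -3.28 ± 0.40 (limma adjusted p = 3.45e-06). Locus 135 rose 51485 bases from Htr2a, a serotonin receptor, which measured 12.7, 10.2 and 10.9 CPM against 6.53, 7.01 and 7.09 CPM (-0.71 ± 0.13). In both pairs neither member overlapped between groups. The other 2 pairs rested on weaker calls. Locus 300 (0.92) and Cdkn2c (-0.37), a cell cycle inhibitor, both lost their calls without any 1 of control 1 or 2 or siRNA_ANK 1, the locus also without siRNA_ANK 3 and the gene also without control 3 or siRNA_ANK 2. Locus 359 (-0.46), 155111 bases from the chemokine receptor gene Ackr3 (0.56), lost its call without control 1 or 3 or siRNA_ANK 1 (adjusted p = 0.0798 to 0.0833). The same interval, up to Cops8, holds locus 368 (0.89) and locus 369 (0.76), which rose.

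Position relative to the gene was the last comparison. Loci within 5 kb of a gene start on the opposite strand, the divergent arrangement, numbered 75, of which 50 were tested, 13 rose and 3 fell. That is 32.0% called, against 40.1% of all rows (19.9% higher and 20.2% lower). Without control 3 the rises were 8. Loci more than 50 kb from any annotated gene numbered 58, of which 32 were tested, 14 rose and 4 fell (56.2% called), and the falls were 2 without control 1 and 2 without control 3. Loci after a gene's end on the same strand, where a transcript can be an extension of that gene, had 3 rises and 5 falls among 27 tested (29.6%). Those before a start on the same strand had 3 and 3 among 19 (31.6%), those near an end on the opposite strand 5 and 3 among 24 (33.3%), and those between 5 and 50 kb away 15 and 8 among 72 (31.9%). The strand setting of the counting is not given in the sources used here, so reads of a locus and of RNA from the other strand cannot be told apart.

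Among divergent loci, locus 203 beside Ccn1 had the largest rise. Ccn1 encodes a matricellular protein secreted by smooth muscle cells, and its promoter, printed above, holds matches of the TATA box and TEAD site letters. Locus 203 begins 136 bases from the gene start in the files' coordinates and runs from 234565620 to 234641070 on chromosome 2. It measured 4.05, 5.99 and 3.87 CPM in control cells, and 18.3, 20.5 and 14.5 CPM in siRNA_ANK cells (1.94 ± 0.17, edgeR adjusted p = 1.75e-06). Ccn1 measured 235, 337 and 227 CPM against 585, 610 and 649 CPM (1.21 ± 0.16, edgeR adjusted p = 0.00129). Both rose without overlap of the groups, and the locus rose by 0.72 ± 0.17 more on the log2 scale (limma adjusted p = 0.00268). In both, control 2 was the highest control.

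Other divergent pairs rose together. Locus 131 begins 15 bases from the start of Samd4a, an RNA-binding regulator of translation, and went from 1.69, 2.07 and 1.75 CPM to 3.84, 3.17 and 3.67 CPM (0.95 ± 0.22). Samd4a rose by 0.41 ± 0.11, a call lost without control 2 or siRNA_ANK 1 (adjusted p = 0.0511 and 0.0583). Locus 71, 2672 bases from Col1a1, which encodes a chain of type I collagen, went from 10.8, 13.9 and 11.7 CPM to 22.9, 18.6 and 19.4 CPM (0.74 ± 0.12), and Col1a1 rose by 0.61 ± 0.05. On the other side of Col1a1, 228 bases after the end of Sgca, a sarcoglycan gene, locus 72 fell with Sgca (-2.28 and -1.09). Locus 34 (0.64) rose with Rab30 (0.47), a Golgi GTPase, and lost its call without control 1 or 3 or siRNA_ANK 2.

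In 4 divergent pairs the locus moved and the gene did not pass the test, and the difference itself was called. Locus 175, 71 bases from Rfx1, a transcription factor, went from 3.15, 3.22 and 3.81 CPM to 6.53, 5.15 and 6.52 CPM (0.84 ± 0.18), while Rfx1 stood at 0.14 (difference 0.69 ± 0.20, limma adjusted p = 0.0116). Locus 193, 26 bases from Setd7, a lysine methyltransferase, went from 2.36, 1.96 and 2.50 CPM to 4.14, 4.73 and 3.61 CPM (0.87 ± 0.21), while the gene stood at 0.01 (difference 0.86 ± 0.25). Locus 124, 132 bases from Dhx15, an RNA helicase, went from 3.09, 2.99 and 2.50 CPM to 5.16, 6.53 and 3.42 CPM (0.81 ± 0.23), while the gene stood at -0.03 (difference 0.80 ± 0.25). These 3 differences lost their calls when single libraries were left out, which also leaves fewer libraries to test. For Rfx1 this was siRNA_ANK 1 (difference 0.62, limma adjusted p = 0.0625). For Setd7 it was control 2 or siRNA_ANK 2 (0.65 and 0.78, limma adjusted p = 0.0600 and 0.0571). For Dhx15 it was control 3 or siRNA_ANK 1 or 2 (0.56 to 0.75, limma adjusted p = 0.0641 to 0.134). The call of locus 124 itself was lost without control 3 or siRNA_ANK 2. Locus 249, 57 bases from Ncoa3, a nuclear receptor coactivator, fell from 15.8, 18.7 and 17.8 CPM to 11.4, 13 and 11.8 CPM (-0.53 ± 0.11), while Ncoa3 stood at -0.02 (difference -0.50 ± 0.13, limma adjusted p = 0.00601).

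The reverse was seen beside Ptgs2, the inducible cyclooxygenase, which fell by 0.76 on the log2 scale while locus 109, 183 bases away, stood at 0.04 (difference 0.82, limma adjusted p = 0.0326). That difference was lost without any 1 of control 1 or 3 or siRNA_ANK 1 or 3 (0.0722 to 0.176). It was also seen beside Mgat2, a glycosylation enzyme that fell by 0.61 on the log2 scale while locus 317, a match of ribosomal protein L36a, stood at -0.18 (difference 0.43, limma adjusted p = 0.000503). Beside Lhx8, a homeobox gene that rose by 0.31, locus 204 stood at -0.23 (difference -0.54, limma adjusted p = 0.00527).

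**Figure D4:**
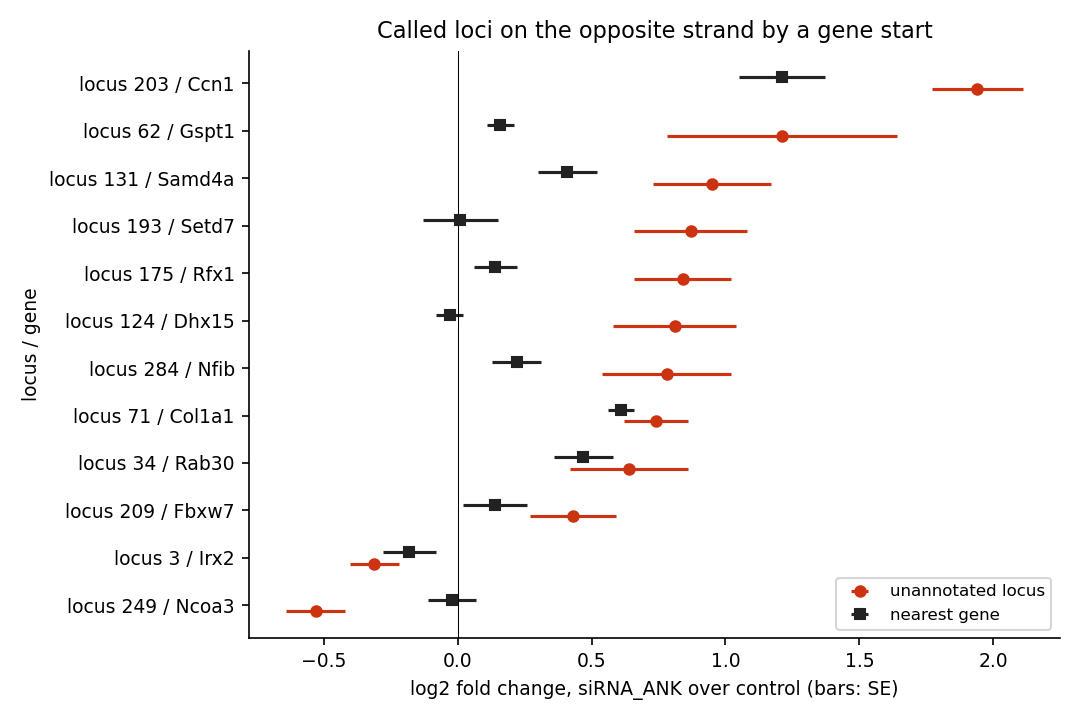
Log2 fold change with SE (n = 3 libraries per group) of 12 called unannotated loci that lie within 5 kb of a gene start on the opposite strand (red circles) and of that gene (black squares). The locus and gene beside Ccn1 both rose (1.94 and 1.21), and beside Setd7, Rfx1 and Dhx15 the locus rose while the gene lay between -0.03 and 0.14.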

How the data were processed

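RNA libraries of 6 samples of primary rat vascular smooth muscle cells were analysed, 3 negative control and 3 siRNA_ANK. The authors deposited whole-number counts per row, with 1 file per library, coordinates and a transcript length in bases. The submitters' processing notes name the counter featureCounts 1.5.0-p3, DESeq2 and, as the build, mRatBN7.2. Which aligner and assembler found the unannotated loci, and whether counting used strand, is not given in the sources used here. 

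Counts were tested with edgeR 4.0.16 in R 4.3.3: filterByExpr (minimum count 10, minimum total count 15), TMM factors, a two-sided robust quasi-likelihood test over 13016 rows and Benjamini-Hochberg adjustment over all of them. Called means an adjusted p under 0.05. SE is the log2 fold change over the square root of F. CPM means are given with SD. The nearest annotated row on the same chromosome was found from the files' coordinates. Differences between a locus and its nearest gene were log2 CPM differences within each library (prior count 0.5), tested with limma 3.58.1 over 8126 pairs. An exact permutation test of 3 against 3 cannot go below 0.10, so none is given. Groups of replicates were compared first: the chi-square per degree of freedom between libraries of a group was 2.83 to 12.3, so none agreed within sampling noise. RefSeq tables (GRCr8) gave names of genes between the same flanks (up to 2000 kb apart) and promoter sequences. Of 40 tested divergent loci within 1 kb of a start, 25 had 1 matching promoter.

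The named loci were the 5 most abundant, the 12 largest rises and 12 largest falls (called, a mean of at least 1 CPM, groups not overlapping), their nearest genes, the 5 largest differences in each direction, all opposite pairs and the 2 loci nearest to the threshold on each side. All others were chosen after their values were seen. The members and lists were chosen with earlier results of these data known. The fits were tested on simulated counts. Alternatives were other scalings, DESeq2 1.42.0, limma-voom, other filters, the replicate block, a test against a fold of 1.2, other choices of nearest gene, a prior count of 2, voom weights and leaving out each library. Leaving out control 2 and siRNA_ANK 3 together was added after seeing the data.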

Additional observations from a re-analysis of the deposited data

How the results depend on the processing

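Over the scalings, tools, filters, the test against a fold of 1.2, the replicate block and the left-out libraries, 36 to 57 unannotated loci were higher and 18 to 33 lower. Without each library in turn the counts were 44 to 53 higher and 21 to 29 lower, with 20 to 30 pairs in the same direction, 2 to 4 in opposite directions, 25 to 34 called differences and an Ankh log2 fold change of -2.12 to -1.79. Without control 2 and siRNA_ANK 3 together, 52 loci were higher and 30 lower. Opposite pairs numbered 2 by DESeq2, 2 within 50 kb and 2 against a fold of 1.2, which also left 13 same-direction pairs. With the nearest gene that had passed the filter, more pairs were tested, with 8 opposite and 60 called differences. The replicate numbers in the labels were not taken to pair the samples, because the labels do not say that they mark a shared culture. Deviations of same-numbered libraries correlated by -0.03, 0.06 and 0.04, and those of differently numbered libraries by -0.09 to 0.05. With so few libraries these values cannot decide whether the samples are paired. With a replicate block 52 loci were higher and 25 lower, with 28 same-direction pairs, 4 opposite pairs, 34 called differences and an Ankh log2 fold change of -1.93. Against a fold of 1.2, LINE-1 loci had 0 falls, loci with no match 26 rises and loci with a cellular match 2 falls. The last count was 3 by DESeq2 and with upper quartile scaling and 9 when all rows with a count were tested. Against a fold of 1.2, far loci had 2 falls. Loci of a few counts per library, such as locus 212 or locus 366, are limited by depth.

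Signs turned for 19 values of single loci, genes and pairs, in 38 combinations of value and alternative, all of them uncalled in the reported fit, and the cause was not tested. With upper quartile scaling locus 40 and locus 234 were 0.01, and with a prior count of 2 the difference of locus 220 and Hmga1 was 0.04. Without control 2 and siRNA_ANK 3 together, locus 40 was 0.14, locus 231 0.13, locus 211 0.01, Ncoa3 0.13 and the difference of locus 40 and Frmd8 0.11. Without each library in turn, values ran from -0.11 to 0.09 for locus 40, -0.06 to 0.04 for locus 234, -0.24 to 0.15 for locus 231, -0.01 to 0.06 for locus 66, -0.18 to 0.28 for locus 109, -0.13 to 0.14 for Setd7, -0.15 to 0.12 for Rdh10, -0.10 to 0.08 for Ncoa3, -0.15 to 0.28 for ENSRNOG00000069985 and -0.23 to 0.11 for Oip5. Differences ran from -0.79 to 0.04 (locus 220 and Hmga1), -0.08 to 0.10 (locus 339 and Arfgap3), -0.05 to 0.35 (locus 34 and Rab30), -0.02 to 0.37 (locus 55 and Kcnip1), -0.08 to 0.76 (locus 358 and Cd28), -0.11 to 0.28 (locus 234 and Oip5) and -0.02 to 0.21 (locus 279 and Rdh10).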

Other observations

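The 10 tested unannotated loci within the first megabase of a chromosome, as the files number it, all had log2 fold changes below 0 in siRNA_ANK cells. This pattern was noticed in the data and was not tested. Of 16 such loci 10 were tested, and their log2 fold changes ran from -3.65 to -0.27 with a median of -0.56. By edgeR 5 were lower and 0 higher at an adjusted p under 0.05, namely locus 363, locus 270, locus 183, locus 50 and locus 205. Of the other 214 tested loci 78 were below 0 and 9.81% were lower. Of 102 tested annotated rows in the same windows 47 were below 0 and 23.5% were lower. The count of 5 held without each library in turn and by DESeq2 and limma-voom, and was 4 with a mean of at least 1 CPM and 3 against a fold of 1.2. The loci came from chromosomes 2, 4, 9 and 10 only, and locus 253, locus 255 and locus 256 have overlapping spans, so they are not independent.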
